A study of Caenorhabditis elegans with 12 samples.

Results

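Gene expression in whole Caenorhabditis elegans carrying both an isp-1 and a sod-5 mutation was set against wild type, with 3 libraries of isp-1;sod-5 and 3 of wild type out of the 12 libraries of the series. Below, isp-1;sod-5 is also called the double mutant, and isp-1;sod-3 is always named in full. The members were chosen by the genotype label of each library, and 14013 of the 14326 genes in the deposited matrix were tested in this comparison. Libraries of the isp-1 single mutant and of the isp-1;sod-3 double mutant, 3 each, are given beside them; all 3 mutant genotypes share the isp-1 mutation, and isp-1;sod-3 carries a mutation of sod-3 in place of sod-5. All animals were young adults that were not yet fertile, kept at 20 °C on NGM plates with OP50 bacteria as food, and the labels name the mutated genes without their alleles. The design text speaks of 9 biological replicates per genotype with RNA of 3 isolates combined in each library, whereas the pooling label of each sample reads none. The p-values therefore measure the spread between these libraries, which may be partly technical.

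The product of isp-1 is the Rieske protein of respiratory complex III, which holds an iron-sulphur cluster and passes electrons from ubiquinol towards cytochrome c. Worms with a defective Rieske protein respire and develop slowly and live long, and they are known for raised mitochondrial superoxide. Superoxide dismutases turn superoxide into hydrogen peroxide: SOD-2 and SOD-3 do so in the mitochondrial matrix, SOD-1 and SOD-5 in the cytosol and SOD-4 outside the cell. A failing respiratory chain is known to switch on nuclear programmes in the worm, among them the mitochondrial unfolded protein response under ATFS-1, the hypoxia response under HIF-1, detoxification under SKN-1 and stress genes under the insulin-pathway factor DAF-16. The question here is which of these programmes and gene families differ from wild type in isp-1 worms that also carry a sod-5 mutation.

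Reads in genes numbered 10633835, 5438798 and 20014693 in isp-1;sod-5 replicates 1 to 3, 16230927, 11475108 and 8705573 in isp-1, and 32213638, 18719033 and 41907300 in wild type. The isp-1;sod-5 libraries also varied most among themselves, with a median SD of log2 values within the group of 0.27, against 0.217 in isp-1;sod-3, 0.126 in isp-1 and 0.12 in wild type. Levels are in CPM, the reads of a gene per 1000000 reads in genes, differences are log2 differences from a limma fit on log2(CPM + 0.5), and calls are made where the adjusted p (Benjamini-Hochberg, over all tested genes) is below 0.05. Folds of genes near 0.5 CPM are understated on this scale.

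One library stood apart before any comparison was made. In isp-1;sod-5 replicate 3 the log2 deviation of a gene from its wild type mean was lower the longer its exons, by 0.223 log2 units per doubling of length (Pearson r across 13939 genes −0.304, a description over genes that share the library). The slopes of the other 11 libraries lay between −0.022 and 0.058, and those of isp-1;sod-5 replicates 1 and 2 were 0.021 and 0.017. When the genes were divided into 5 equal classes by exon length, the median deviation of replicate 3 was 0.44 in the shortest class (51 to 805 bases), 0.35, 0.23 and 0.07 in the next, and −0.23 in the longest (2342 to 56044 bases). The trend entered the calls: 19.6% of the shortest class were called higher than in wild type and 5.81% of the longest, while without replicate 3 the shares were 13.7% and 10.3%. Shares called lower ran from 8.12% in the shortest class to at least 10.5% in each of the others. Without replicate 3 they went the other way, from 11.9% in the shortest class to 7.97% in the longest. Replicate 3 also held least of the 26S ribosomal RNA gene rrn-3.1, which was chosen after its values were seen: it was at 63709, 47622 and 3368 CPM in the double mutant, 38750.5, 71155 and 62650.2 CPM in isp-1 and 18065, 29779.6 and 31402 CPM in wild type. List counts above 3 and list medians that moved by over 1.5 times without replicate 3 are given below with and without it.

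**Figure D1:**
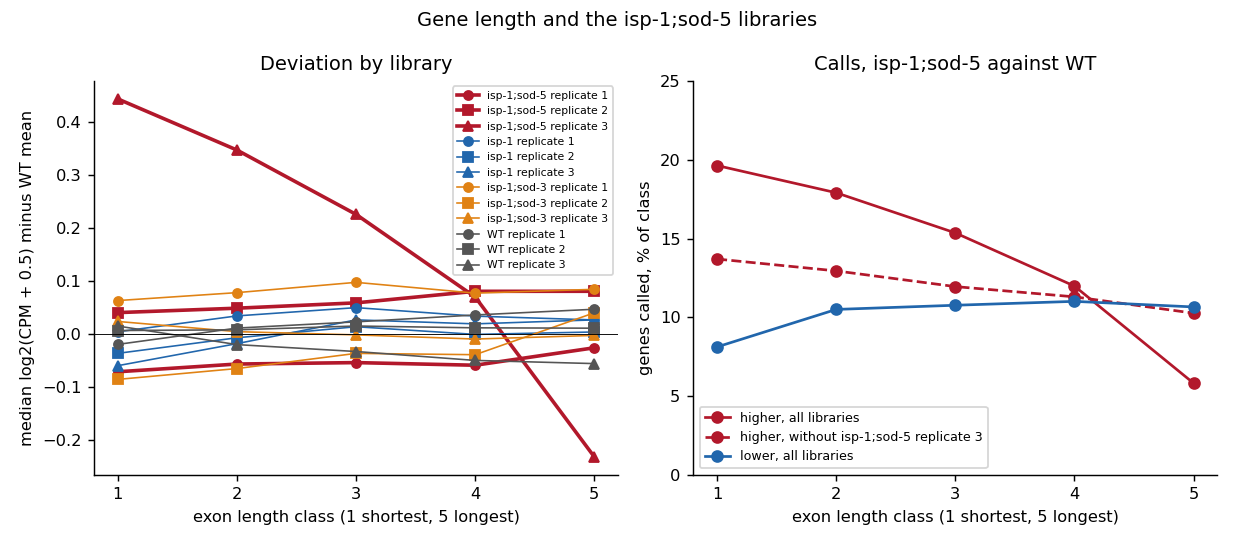
Left, the median log2 deviation of each of the 12 libraries from the wild type mean, by class of exon length. Right, the share of genes in each class called higher (with and without double mutant replicate 3) or lower in isp-1;sod-5 than in wild type. The line of isp-1;sod-5 replicate 3 descends from 0.44 to −0.23 while the lines of the other libraries stay near 0, and the share called higher descends from 19.6% to 5.81% with all libraries.

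The sod-5 gene itself (WBGene00007036, chromosome II, 4417633 to 4419130, forward strand) was close to the detection limit and below the filter on low values. It had 0.188, 0 and 0.350 CPM in the double mutant, which is 2, 0 and 7 reads, 0.616, 0.523 and 0.115 CPM in isp-1 and 0.0931, 0.160 and 0.262 CPM in wild type. The ranges of the groups overlapped, and an exact two-sided permutation test on CPM gave p = 1 against wild type and p = 0.3 against isp-1, where 3 libraries against 3 cannot go below 0.1. Loss of the sod-5 transcript could therefore not be checked at this depth, and what the mutation does to the gene is not given in the labels. In isp-1;sod-3 the gene had 0.832, 1.005 and 1.61 CPM, all above the isp-1;sod-5 libraries.

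Among the other dismutases, sod-3 (WBGene00004932), for a mitochondrial enzyme, was at 15.1, 16.9 and 26.1 CPM in the double mutant, 20.0, 18.6 and 20.7 CPM in isp-1 and 1.68, 1.98 and 2.60 CPM in wild type. Every isp-1;sod-5 library lay above every wild type library (log2 2.92, SE 0.38, adjusted p = 0.000184), and isp-1 stood 2.99 above wild type. The mitochondrial sod-2 rose by 0.48 (SE 0.09, adjusted p = 0.00215), with 111, 106 and 122 CPM in the double mutant and 74.7, 80.7 and 87.6 CPM in wild type, groups that did not overlap. Cytosolic sod-1 and extracellular sod-4 were at log2 0.24 and 0.43 and were not called (adjusted p = 0.0839 and 0.0816). The transcript of isp-1 was at 361, 373 and 451 CPM in the double mutant, 332, 336 and 348 CPM in isp-1 and 306, 273 and 306 CPM in wild type, a rise of 0.42 against wild type (adjusted p = 0.0154) that was not called without wild type replicate 2 (adjusted p = 0.0757). Since the allele is not given, this level is no check of the isp-1 label.

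Against wild type, 1972 genes were higher in isp-1;sod-5 (14.1% of those tested) and 1430 were lower (10.2%). At 2-fold or more there were 520 rises and 927 falls. The median over all tested genes was 0.04. In the lists below, counts of 3 or fewer genes in the less common direction carry no statement, since several went to 0 when a wild type library was left out. All list counts against wild type are to be read beside the shares of 14.1% and 10.2% over all tested genes. Some genes are in more than 1 list, so counts of different lists are not independent. In the isp-1 single mutant, 1345 genes were higher than in wild type (9.60%) and 1453 lower (10.4%). Both comparisons use the same wild type libraries, so their values are set side by side here and no overlap is computed. A difference between their counts is not a test of isp-1;sod-5 against isp-1. Of the isp-1;sod-5 calls 58.0% were higher, but the split depends on the scaling: 45.0% were higher with TMM factors (1541 of the calls higher and 1884 lower), 43.1% with median centring, 43.4% with edgeR, 46.5% with DESeq2, 52.1% with quantile normalization and 52.6% with the length trend removed. The counts were 1233 higher and 649 lower without wild type replicate 1, 1213 and 652 without wild type replicate 2, 1391 and 821 without wild type replicate 3, and 1995 and 757 without double mutant replicate 1. In whole worms, fewer cells of a type and less RNA per cell cannot be told apart.

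The strongest rises named here are the 12 largest among called genes that have a locus name, average 5 CPM or more and show no overlap of libraries (23.7% of tested genes had all isp-1;sod-5 libraries above all wild type libraries and 18.6% had all below). At the top was tts-1, a long noncoding RNA known to accumulate in long-lived daf-2 and clk-1 worms and to bind ribosomes. It was at 195, 216 and 363 CPM in the double mutant, 95.6, 79.1 and 71.1 CPM in isp-1 and 8.97, 10.9 and 9.66 CPM in wild type. The isp-1;sod-5 libraries lay above all others of these 3 genotypes, 4.59 above wild type on the log2 scale (SE 0.36, adjusted p = 1.47e-05). Next came timm-17B.2 (chromosome IV, 8396648 to 8397954), which encodes a TIM17-type subunit of the inner membrane protein import channel, at 94.4, 99.8 and 119.8 CPM in the double mutant, 10.7, 8.89 and 11.7 CPM in isp-1 and 3.88, 5.13 and 4.84 CPM in wild type. Replicates of each genotype agreed closely and no groups overlapped (log2 4.36, SE 0.15, adjusted p = 5.18e-10). The degenerin-like channel gene delm-2 was at 12.04, 16.2 and 11.4 CPM in the double mutant and at most 0.341 CPM in wild type (log2 4.30, adjusted p = 6.29e-06).

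Further rises included rnh-1.3, a ribonuclease H gene, with 84.3, 66.6 and 84.2 CPM in the double mutant, 28.2, 20.8 and 22.7 CPM in isp-1 and 4.59, 3.85 and 4.41 CPM in wild type. These 3 groups did not overlap (log2 4.04 against wild type, adjusted p = 1.04e-08). The heme-responsive gene hrg-2 stood at log2 4.04 (adjusted p = 9.81e-08), the C-type lectin gene clec-17 at 3.99, and the MATH-domain genes bath-13 and bath-45 at 3.98 and 3.40. Of 4 cytochrome P450 genes among the 12, cyp-13B1 had even replicates (13.6, 10.5 and 11.9 CPM in the double mutant against 0.248, 0.481 and 0.453 CPM in wild type, log2 3.81, adjusted p = 5.61e-07). The others varied widely within isp-1;sod-5: cyp-14A4 was at 6.86, 23.9 and 44.4 CPM, cyp-13A12 at 6.39, 14.5 and 35.7 CPM and cyp-13A8 at 2.45, 15.8 and 66.4 CPM, with wild type at most 1.12 CPM for each. In all 3 genes replicate 1 was lowest and replicate 3 highest. The call of cyp-13A8 (log2 4.21, adjusted p = 0.0421) was lost under 8 of the settings that leave out 1 library, among them replicate 3 (log2 3.12, adjusted p = 0.135), replicate 2 and each wild type library, and under 4 other alternatives, and its value reached 5.37 without replicate 1. The cyp-13A genes are close copies of each other, so reads may be shared between them.

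Of the 12 largest falls, fat-7, a stearoyl-CoA desaturase gene, led with 0.376, 1.29 and 0.650 CPM in the double mutant, 2.09, 3.49 and 1.38 CPM in isp-1 and 55.8, 34.1 and 24.5 CPM in wild type. All mutant libraries lay far below wild type, with a difference of −4.91 in isp-1;sod-5 (SE 0.35, adjusted p = 8.32e-07) and −3.76 in isp-1. The yolk protein gene vit-3, described below, came next at −3.76. The hedgehog-related gene wrt-4 fell by 3.65 (adjusted p = 0.000844), with 2.35, 9.01 and 5.85 CPM in the double mutant and 71.9, 71.6 and 64.6 CPM in wild type, and the cuticlin gene cut-2 was at log2 −2.95. Digestive, defence and transport genes made up the rest, namely the aspartyl protease genes asp-12 and asp-17 (log2 −3.44 and −3.37), the transporter genes pgp-6 and pgp-5 (−3.37 and −2.77, close copies that may share reads), the cytochrome P450 gene cyp-35C1 (−3.18), the infection response gene irg-8 (−3.13) and the lysozyme genes ilys-5 and lys-4 (−2.53 and −2.51). All 12 falls were still called when any 1 library was left out.

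**Figure D2:**
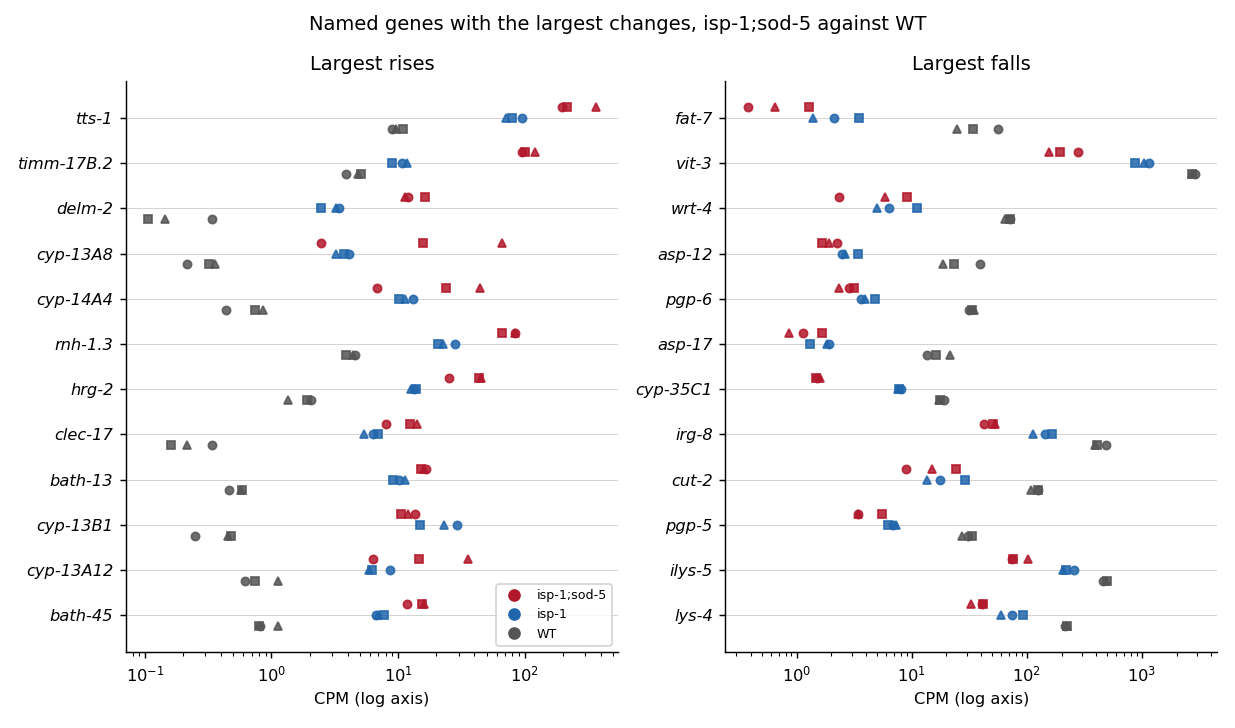
Level in CPM (log axis) of the 12 largest rises and 12 largest falls of isp-1;sod-5 against wild type in the libraries of isp-1;sod-5, isp-1 and wild type, with marker shape giving the replicate number. The 3 isp-1;sod-5 libraries lie on the far side of wild type for every gene, and cyp-13A8, cyp-14A4 and cyp-13A12 show the widest spread within isp-1;sod-5.

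Many nuclear genes for mitochondrial proteins were higher. Of 22 genes of the mitochondrial unfolded protein response, 16 rose in isp-1;sod-5 and the others were not called (median 0.52), and 12 rose in isp-1 (median 0.35). Between isp-1;sod-5 and isp-1 directly, 0 of the 22 were called, against 1.21% of all tested genes. At that share a count of 0 in a list of this size carries no statement. The list median there was 0.14, against 0.05 over all tested genes. The matrix chaperone gene hsp-6, the usual marker of this response, was at 1421, 1404 and 1303 CPM in the double mutant, 1150.4, 1164 and 1141 CPM in isp-1 and 792, 729.6 and 721 CPM in wild type. The groups did not overlap and isp-1;sod-5 was highest (log2 0.88, SE 0.09, adjusted p = 1.87e-05). The gene of its regulator, atfs-1, rose by 0.86 (adjusted p = 0.000125), with 149.5, 140.3 and 151 CPM in the double mutant and 81.7, 80.6 and 79.5 CPM in wild type. Thioredoxin and thioredoxin reductase genes of mitochondria, trx-2 and trxr-2, rose by 0.94 and 1.32, the cochaperone gene dnj-10 by 0.73 and the protease gene ymel-1 by 0.65. Not every member moved: the chaperonin gene hsp-60 was at log2 −0.16 (adjusted p = 0.321), with 635, 620.4 and 568 CPM in the double mutant and 672, 689 and 668 CPM in wild type.

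Protein import genes followed, with 10 of 13 higher and the others not called (median 0.49), but the count was 6 without wild type replicate 1 or 2. It was also 6 with median centring, TMM factors or edgeR, 7 with quantile normalization and 8 with the length trend removed. Besides timm-17B.2, the outer membrane gene tomm-7 was at 71.1, 64.7 and 78.9 CPM in the double mutant, 42.0, 48.2 and 48.0 CPM in isp-1 and 33.4, 32.6 and 35.8 CPM in wild type. The 3 groups did not overlap (log2 1.06, adjusted p = 1.70e-05); 22.9% of its exon bases are shared with a noncoding gene on the other strand, and the labels do not say whether the counting used strand. The channel gene timm-23 rose by 0.67 (adjusted p = 0.000220). The paralog of timm-17B.2, timm-17B.1, was at 142, 152 and 215 CPM in the double mutant and 117, 110.3 and 103 CPM in wild type, a smaller rise of 0.60 (adjusted p = 0.00780).

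Respiratory chain subunits encoded in the nucleus showed rises of small size. For complex I, 21 of 32 genes rose in the double mutant (median 0.38) and 4 in isp-1 (median 0.16). For complex III it was 7 of 10 (median 0.38), and for complexes II, IV and V 14 of 28 (median 0.41), and no gene of these lists was called lower by limma. No gene of all 3 lists was called between isp-1;sod-5 and isp-1 directly, where 1.21% of all tested genes were. The medians of that comparison were 0.23 for complex I, 0.21 for complex III and 0.27 for complexes II, IV and V. Over all tested genes it was 0.05. The counts against wild type rest on the wild type libraries and on the scaling. Complex I had 8 without wild type replicate 1 and 9 without wild type replicate 2. Complex III had 3 without wild type replicate 1 or 2 and 4 without double mutant replicate 2. Complexes II, IV and V had 4 without wild type replicate 1, 6 without wild type replicate 2 and 8 without wild type replicate 3. In the same order of lists, the counts were 12, 4 and 10 with median centring and 15, 4 and 8 with TMM factors. They were 14, 4 and 12 with edgeR and 19, 6 and 17 with quantile normalization. The medians stayed between 0.24 and 0.48 for all 3 lists when any 1 library was left out, and that of complexes II, IV and V was 0.24 without double mutant replicate 3. Median deviations from the wild type mean were highest in that replicate. In replicates 1 to 3 they were 0.29, 0.32 and 0.58 for complex I and 0.24, 0.34 and 0.61 for complex III. For complexes II, IV and V they were 0.24, 0.26 and 0.68. The median exon lengths of the lists were 734.5, 1168.5 and 808.5 bases. In detail, gas-1 (a core complex I subunit) was at 179, 188 and 187 CPM in the double mutant, 163, 168 and 162 CPM in isp-1 and 120.1, 119.7 and 132 CPM in wild type, and ucr-2.1, a core subunit of complex III, was at 184, 180.4 and 216 CPM in the double mutant, 163, 166 and 166 CPM in isp-1 and 124, 116 and 134 CPM in wild type. For both genes isp-1;sod-5 lay above wild type without overlap (log2 0.57 and 0.63, adjusted p = 0.00238 and 0.000975), and cox-15, needed for the heme of complex IV, rose by 0.66 (adjusted p = 0.000279).

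Ubiquinone, the carrier that feeds complex III, is made by the coq genes, of which 7 of 8 rose in the double mutant (median 0.58) and 6 in isp-1 (median 0.44). Directly between these mutants, 0 of the 8 were called, against 1.21% of all tested genes, so this count carries no statement. The first enzyme of side chain synthesis, coq-1, was at 78.1, 95.2 and 108 CPM in the double mutant, 72.6, 81.4 and 79.3 CPM in isp-1 and 52.2, 57.5 and 49.3 CPM in wild type. Wild type lay below both mutants (log2 0.81 in isp-1;sod-5, adjusted p = 0.000426), and clk-1, a hydroxylase whose mutants live long, rose by 0.75 (adjusted p = 0.00131). Genes encoded in mitochondrial DNA behaved differently: 2 of 12 were higher and the others were not called, with a median of −0.31. Their median deviations from the wild type mean were −0.97, −0.33 and 0.58 in the double mutant libraries, so the group ranged across the level of wild type (0.46, 0.24 and −0.75). The median was −0.77 without double mutant replicate 3, 0.04 without replicate 1 and −0.18 without replicate 2, and ran from −0.74 to 0.05 with a wild type library left out. The exceptions were ND6, a complex I subunit gene, with 136, 144 and 111 CPM in the double mutant, 122, 112 and 89.7 CPM in isp-1 and 45.9, 42.4 and 44.4 CPM in wild type (log2 1.54, adjusted p = 8.09e-05), and WBGene00010958 (log2 1.77, adjusted p = 0.00139). Mitochondrial ribosomal protein genes had 8 of 69 higher (median 0.15), and 3 without wild type replicate 1 or 2. That share of 11.6% was below the 14.1% of all tested genes. The median of these ribosomal genes was 0.04 without double mutant replicate 3 and 0.22 without replicate 1.

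Detoxification genes rose in part and fell in part. SKN-1 is the worm's NRF-type regulator of conjugating enzymes, and 15 of 27 of its targets rose and 2 fell in the double mutant (median 0.71), against 17 and 0 in isp-1 (median 0.80). The dehydrogenase gene dhs-8 was at 6.39, 5.33 and 5.996 CPM in the double mutant, 6.59, 4.97 and 5.17 CPM in isp-1 and 0.559, 0.588 and 0.358 CPM in wild type. Both mutants lay well above wild type, with log2 2.68 in isp-1;sod-5 (adjusted p = 9.82e-07). The much used reporter gene gst-4 was at 37.7, 48.9 and 55.3 CPM in the double mutant, 81.9, 72.4 and 64.8 CPM in isp-1 and 15.0, 16.8 and 14.3 CPM in wild type. Its isp-1;sod-5 libraries lay above wild type (log2 1.57, adjusted p = 0.000122) and below all isp-1 libraries, but that difference of −0.63 was not called (adjusted p = 0.189). For gsto-1, an omega-class transferase gene, isp-1;sod-5 was the highest, with 42.9, 52.4 and 57.9 CPM in the double mutant, 16.9, 24.1 and 20.8 CPM in isp-1 and 14.1, 15.8 and 13.8 CPM in wild type. The difference was 1.77 against wild type (adjusted p = 2.36e-05) and 1.29 against isp-1 (adjusted p = 0.00198).

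In the glutathione S-transferase family of 40, 15 rose and 1 fell (median 0.52), against 13 and 0 in isp-1 (median 0.49). Their median deviations from the wild type mean were 0.22, 0.46 and 0.79 in the double mutant libraries, highest in replicate 3, and without that library 10 rose and the median was 0.30. Cytochrome P450 genes changed in both directions, with 22 of 57 higher and 11 lower (median 0.56), against 21 and 3 in isp-1. The higher count was 14 without wild type replicate 1, and the lower count 7 without wild type replicate 2. A rise with even replicates was that of cyp-34A8, at 64.7, 78.7 and 78.1 CPM in the double mutant, 43.1, 37.9 and 42.2 CPM in isp-1 and 18.7, 21.6 and 19.1 CPM in wild type, with isp-1;sod-5 highest (log2 1.87, adjusted p = 1.84e-07). The fall of cyp-35C1, by contrast, took it to 1.505, 1.47 and 1.60 CPM in the double mutant, against 8.07, 7.67 and 7.58 CPM in isp-1 and 18.9, 17.5 and 17.3 CPM in wild type. No groups overlapped, and the difference was −3.18 against wild type and −2.03 against isp-1 (adjusted p = 3.17e-06 and 0.00107). Its relative cyp-35A3 fell by 2.94 against wild type (adjusted p = 3.07e-06). UDP-glucuronosyltransferases, which attach sugars to small molecules, had 14 of 57 higher and 13 lower (median 0.18), against 15 and 6 in isp-1, and without wild type replicate 2 the counts were 9 and 8. Their median ran from 0.04 to 0.34 when 1 library was left out (without double mutant replicate 2 and replicate 1), with 0.10 without replicate 3 and 0.10 without wild type replicate 3. ABC transporter genes were more often lower, 16 of 52 against 4 higher (median −0.19). These are long genes, and their median rests on single libraries, at −0.06 without double mutant replicate 3, −0.10 without replicate 1, −0.34 without replicate 2 and −0.06 with the length trend removed, while 15 were lower without replicate 3.

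Thiol and peroxide antioxidant genes gave 6 of 26 higher and the others not called (median 0.20). The glutathione peroxidase gene gpx-8 was at 6.11, 8.46 and 5.75 CPM in the double mutant, 1.17, 0.959 and 0.919 CPM in isp-1 and 0.869, 0.748 and 0.668 CPM in wild type. Its isp-1;sod-5 libraries lay above all others of these genotypes, by 2.51 against wild type (adjusted p = 4.67e-05) and 2.25 against isp-1 (adjusted p = 0.000769), whereas isp-1 and wild type differed by 0.26 (adjusted p = 0.559). Catalase genes ctl-1 and ctl-2 were not called (log2 0.28 and −0.26), and the third catalase gene ctl-3 rose by 0.83 (adjusted p = 0.00389).

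Hypoxia and sulphide genes under HIF-1 gave 11 of 21 higher and 1 lower in the double mutant (median 0.55), against 11 and 1 in isp-1 (median 0.56), while hif-1 itself was at 0.01. The sulphide oxidation gene sqrd-1 was at 9.31, 9.56 and 10.9 CPM in the double mutant, 9.06, 8.54 and 8.50 CPM in isp-1 and 2.92, 2.51 and 2.171 CPM in wild type. Both mutants stood apart from wild type (log2 1.79 in isp-1;sod-5, adjusted p = 7.05e-06), as they did for the nuclear receptor gene nhr-57 (1.55) and for egl-9, the prolyl hydroxylase that marks HIF-1 for decay (0.64, adjusted p = 0.00246). The flavin monooxygenase gene fmo-2 differed in size: 1.505, 1.65 and 1.15 CPM in the double mutant, 6.53, 7.76 and 7.93 CPM in isp-1 and 0.0310, 0 and 0.119 CPM in wild type. The 3 groups did not overlap, and the level of isp-1;sod-5 was above wild type (log2 1.81, adjusted p = 4.31e-05) and below isp-1 (log2 −2.03, adjusted p = 0.000104). At these levels the value depends on the pseudocount, and edgeR gave 4.16 against wild type.

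Heme genes set isp-1;sod-5 apart from isp-1, but no hrg gene was called between isp-1;sod-5 and isp-1;sod-3. Of 42 iron, heme and metal genes 12 were higher and 2 lower than in wild type (median 0.17, or 0.29 without double mutant replicate 1), and 3 genes, all of the hrg group, were also higher than in isp-1, where 0.642% of all tested genes were called higher and 0.564% lower. The heme transporter gene hrg-1 was at 95.3, 96.3 and 87.6 CPM in the double mutant, 27.1, 37.4 and 47.8 CPM in isp-1 and 13.7, 16.5 and 21.5 CPM in wild type. No groups overlapped, with a difference of 2.42 against wild type (adjusted p = 2.26e-06) and 1.34 against isp-1 (adjusted p = 0.00223). The secreted heme signal gene hrg-7 followed at 772, 927 and 828 CPM in the double mutant, 386, 465 and 476 CPM in isp-1 and 215, 267 and 261 CPM in wild type, and hrg-2, a heme-responsive gene of the hypodermis, was at 25.1, 43.2 and 44.9 CPM in the double mutant, 13.3, 13.9 and 12.6 CPM in isp-1 and 2.05, 1.92 and 1.36 CPM in wild type. Both again showed 3 separate groups (against isp-1, 0.93 with adjusted p = 0.00111 and 1.43 with adjusted p = 0.00684). The ferritin gene ftn-1 rose by 2.53 against wild type and was not called against isp-1 (log2 0.28, adjusted p = 0.699).

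Targets of DAF-16 moved both ways. Of 28 genes that DAF-16 activates, 14 rose and 5 fell (median 0.87), against 14 and 2 in isp-1, with 3 without double mutant replicate 1 or wild type replicate 1 or 2 lower. Of 12 genes listed as repressed by it, 6 fell and 2 rose (median −0.48), and 0 without double mutant replicate 2 or wild type replicate 1 and 1 without double mutant replicate 3 or wild type replicate 2 or 3 rose. Some of these genes, dod-22 and dod-24 among them, are counted again in the infection response list below. Among the activated genes, pck-1, the key enzyme of gluconeogenesis, was at 317, 313 and 282 CPM in the double mutant, 321, 308 and 326 CPM in isp-1 and 102, 91.4 and 108 CPM in wild type. Both mutants were at about the same level above wild type (log2 1.59 in isp-1;sod-5, adjusted p = 1.84e-07). The transhydrogenase gene nnt-1 rose by 1.89, and the lysozyme gene lys-7 and the desaturase gene fat-5, also on the activated list, fell by 2.31 and 3.08.

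Most infection response genes fell. Of 12 irg and CUB-like dod genes, 8 fell and 1 rose (median −1.36), against 5 and 2 in isp-1 (median −0.41). For irg-8 the levels were 42.4, 51.1 and 52.7 CPM in the double mutant, 142, 164 and 114 CPM in isp-1 and 489, 409.6 and 394 CPM in wild type. Each group stood apart from the next (log2 −3.13 against wild type and −1.50 against isp-1, adjusted p = 4.44e-08 and 0.000293). The CUB-like gene dod-24 was at 3.48, 4.96 and 6.70 CPM in the double mutant, 41.0, 43.7 and 31.6 CPM in isp-1 and 24.8, 16.0 and 17.5 CPM in wild type. Wild type thus lay between the mutants, with −1.86 in isp-1;sod-5 and 0.99 in isp-1 (adjusted p = 0.000395 and 0.0227) and −2.85 between the mutants (adjusted p = 7.82e-05). Others on the list, irg-1, irg-2, irg-4, dct-17, dod-19 and dod-23, fell by between 0.65 and 2.63, dod-22 rose by 0.98, and irg-3, irg-7 and dod-17 were not called. Between 6 and 9 of the list were lower when 1 library was left out, and the rise of dod-22 was not called without wild type replicate 1 or isp-1;sod-5 replicate 2.

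Lysozymes, which cut bacterial cell walls, gave 6 of 10 lower and 1 higher (median −0.86), against 4 and 1 in isp-1. The invertebrate-type gene ilys-5 was at 73.8, 76.1 and 102 CPM in the double mutant, 254, 219 and 206 CPM in isp-1 and 459, 497 and 487 CPM in wild type. As for irg-8, the groups formed 3 separate steps (log2 −2.53 against wild type and −1.43 against isp-1, adjusted p = 1.84e-07 and 0.000274). Antimicrobial peptide genes had 10 of 53 higher and 7 lower, including spp-1, a pore-forming saposin-like protein gene, at 68.2, 75.0 and 73.1 CPM in the double mutant, 47.1, 45.9 and 43.7 CPM in isp-1 and 21.3, 23.3 and 25.7 CPM in wild type (log2 1.60, adjusted p = 9.40e-08), and spp-4, which fell by 1.80. Of the antimicrobial list 18.9% were higher and 13.2% lower, against 14.1% and 10.2% of all tested genes. Without wild type replicate 1 the higher count was 6, and the lower count ran from 1 to 9 over the libraries left out, with 1 without wild type replicate 3, 2 without double mutant replicate 2 or wild type replicate 1 or 2 and 3 without double mutant replicate 1 or isp-1 replicate 1. C-type lectin genes split into 17 higher and 25 lower of 93 (median −0.08), with 16 lower without wild type replicate 1 or 3. That median has no settled sign, at 0.03 without double mutant replicate 1, −0.23 without replicate 3, −0.04, −0.14 and −0.12 without wild type replicates 1 to 3, and 0.05 with the 5 CPM filter. Among them clec-43 was at 10.8, 11.2 and 12.6 CPM in the double mutant, 1.66, 1.13 and 1.95 CPM in isp-1 and 3.01, 2.46 and 2.77 CPM in wild type. It was highest in isp-1;sod-5 and lowest in isp-1 (log2 1.89 and −0.66 against wild type, 2.55 between the mutants with adjusted p = 1.16e-05).

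The yolk protein genes separated isp-1;sod-5 from isp-1, but none was called between isp-1;sod-5 and isp-1;sod-3. Vitellogenins are made in the adult intestine and taken up by oocytes, and 4 of 6 fell in the double mutant (median −1.38), against 2 in isp-1 (median −0.10); the count did not change when any 1 library was left out. The level of vit-3 was 278, 195 and 157 CPM in the double mutant, 1139, 860.3 and 1037 CPM in isp-1 and 2890.3, 2739.7 and 2697 CPM in wild type. The groups did not overlap, and the difference was −3.76 against wild type (SE 0.18, adjusted p = 1.23e-08) and −2.30 against isp-1 (adjusted p = 1.16e-05). For vit-4 the values were 579, 452 and 380.1 CPM in the double mutant, 1821, 1408 and 1667 CPM in isp-1 and 2328, 2285 and 2207 CPM in wild type, again 3 separate groups (log2 −2.29 against wild type and −1.81 against isp-1, adjusted p = 1.84e-07 and 1.16e-05).

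The fall was smaller in vit-1 and vit-5. The level of vit-5 was 4313, 3266 and 2299 CPM in the double mutant, 9033, 6651 and 7859 CPM in isp-1 and 7439, 7219.6 and 7206 CPM in wild type, so that isp-1 overlapped wild type and isp-1;sod-5 lay below both (log2 −1.19 against wild type, adjusted p = 0.000906, and −1.29 against isp-1, adjusted p = 0.00293). The genes vit-2 and vit-6 were not called, at log2 −0.20 and −0.17 with overlapping groups. In isp-1;sod-5 all 6 genes were lowest in replicate 3, the library with the length trend, and their exons are long. Without that library vit-3 still stood at −3.57 and vit-5 at −0.96. The genes vit-3, vit-4 and vit-5 resemble each other, so their reads may be shared. Intestine markers, a list of other genes, had 4 of 20 lower, with 1 without double mutant replicate 1 or wild type replicate 1 or 2 and 2 without double mutant replicate 2 or isp-1 replicate 1 or 3 or wild type replicate 3 or isp-1;sod-3 replicate 1, and their summed level was 4490.0, 4845 and 5981 CPM in the double mutant, 4637, 4869.9 and 4487 CPM in isp-1 and 6193, 5965 and 5965 CPM in wild type. The part of a change in intestinal tissue in the yolk, lysozyme and protease values was not tested. The pud genes, which rise in daf-2 mutants and are of unknown function, had 2 of 3 lower, with pud-4 at 0.564, 0 and 0.300 CPM in the double mutant, 6.84, 2.53 and 2.41 CPM in isp-1 and 1.37, 2.03 and 2.74 CPM in wild type (log2 −1.72, adjusted p = 0.0111), and pud-3 was not called without wild type replicate 2 or 3, which left 1. The pud genes are close copies of each other. Their summed level was 1.88, 0.919 and 2.10 CPM in isp-1;sod-5, 0.355, 0.938 and 3.87 CPM in isp-1;sod-3 and 27.2, 9.76 and 9.76 CPM in isp-1.

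Genes of energy metabolism were called higher more often than lower. Of 26 genes of glycolysis and gluconeogenesis 12 rose and 3 fell (median 0.31), against 12 and 4 in isp-1. The lower count was 0 without wild type replicate 2 and 1 without wild type replicate 1. In the tricarboxylic acid cycle and glyoxylate shunt, with 30 genes, 13 rose and the others were not called (median 0.32), 5 rose in isp-1, and the isp-1;sod-5 count was 8 without wild type replicate 2. Of these 30 genes, 0 were called between isp-1;sod-5 and isp-1 directly, against 1.21% of all tested genes. The list median of that comparison was 0.14, against 0.05 over all tested genes. Lactate dehydrogenase gene ldh-1 was at 149, 148 and 153 CPM in the double mutant, 117, 119.9 and 120.2 CPM in isp-1 and 63.9, 66.2 and 75.6 CPM in wild type. All 3 groups were separate and even (log2 1.13, adjusted p = 1.22e-06). The glyoxylate gene icl-1 was at 734, 802 and 562 CPM in the double mutant, 624, 479 and 434 CPM in isp-1 and 291, 250.4 and 266 CPM in wild type (log2 1.36, adjusted p = 5.58e-05), the aldolase gene aldo-1 rose by 1.32, and the alcohol dehydrogenase gene adh-1 by 2.60 (adjusted p = 3.81e-08); adh-1 shares 5.34% of its exon bases with sodh-2 on the other strand.

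In fat metabolism, 16 of 60 oxidation and lipase genes rose and 9 fell (median 0.11), the rises being 10 without wild type replicate 1, while 3 of 36 synthesis genes rose and 7 fell (median −0.05), with 5 without double mutant replicate 3 higher. Without isp-1;sod-5 replicate 3 the medians were 0.07 for oxidation and −0.08 for synthesis, and the synthesis median stayed between −0.08 and −0.01 when 1 library was left out. The acyl-CoA synthetase gene acs-2, known to rise on fasting, was at 228, 270.5 and 141 CPM in the double mutant, 194, 124 and 109 CPM in isp-1 and 21.1, 18.1 and 22.7 CPM in wild type. Both mutants were far above wild type and overlapped (log2 3.29 in isp-1;sod-5, adjusted p = 2.98e-05). On the synthesis side the desaturase gene fat-5 was at 1.22, 0.368 and 1.60 CPM in the double mutant, 3.88, 2.79 and 3.56 CPM in isp-1 and 14.8, 10.6 and 10.6 CPM in wild type (log2 −3.08, adjusted p = 2.79e-05), dgat-2, for triglyceride synthesis, was at −1.60 (adjusted p = 5.58e-05), and fat-1, an omega-3 desaturase gene, rose by 0.60.

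Some propionate genes differed between the mutants. Worms break down propionate by a vitamin B12-dependent path or, when that is limiting, by the shunt of acdh-1, ech-6, hach-1, hphd-1 and alh-8, and 9 of 14 genes of both paths and their regulators rose and 1 fell in the double mutant (median 0.38), against 5 and 4 in isp-1 (median 0.11), and 3 were higher in isp-1;sod-5 than in isp-1. The shunt dehydrogenase gene hphd-1 was at 735, 793 and 648 CPM in the double mutant, 386, 385 and 346 CPM in isp-1 and 469, 469.9 and 532 CPM in wild type. It lay above wild type in isp-1;sod-5 and below it in isp-1 (log2 0.56 and −0.40, 0.96 between the mutants, adjusted p = 0.000274). For ech-6 the values were 692, 716 and 739 CPM in the double mutant, 476, 468 and 427 CPM in isp-1 and 479.6, 485 and 523 CPM in wild type, and for hach-1 they were 296, 307 and 311 CPM in the double mutant, 179, 182 and 149.7 CPM in isp-1 and 344, 339 and 336 CPM in wild type. Thus ech-6 was highest in isp-1;sod-5, while hach-1 was low in isp-1 and near wild type in isp-1;sod-5 (against isp-1, 0.65 and 0.84, adjusted p = 0.00923 and 0.000553). The carboxylase genes pcca-1 and pccb-1 of the B12-dependent path rose by 0.50 and 0.54 in isp-1;sod-5 and by 0.51 and 0.56 in isp-1. The summed level of the 14 propionate genes was 5515, 6107 and 5962 CPM in isp-1;sod-5 and 5954, 5486 and 6311 CPM in isp-1;sod-3. In isp-1 it was 4428, 4445 and 4085 CPM. Methionine cycle and folate genes had 4 of 29 higher and 9 lower, with ahcy-1, which clears S-adenosylhomocysteine, down by 0.81 and the thymidylate synthase gene tyms-1 up by 1.23.

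Lists of protein synthesis and folding differed among themselves. Of 31 tRNA synthetase genes 6 rose and 5 fell (median −0.11, −0.05 without double mutant replicate 3), and the rises were between 1 and 6 with 1 library left out, 1 without wild type replicate 1. The rises were also fewer without double mutant replicate 1 or 2, any isp-1 library or wild type replicate 2 or 3, and the falls were 3 without wild type replicate 2 or 3. Of 42 translation factor genes 2 rose and 5 fell (median −0.10), with 3 without wild type replicate 2 or 3 and 10 without double mutant replicate 3 lower. The 11.9% that fell were near the 10.2% of all tested genes. Cytosolic ribosomal protein genes had 1 of 82 lower in the double mutant (median −0.10) and 46 lower in isp-1 (median −0.42). Directly between these mutants, 0 of the 82 were called, against 1.21% of all tested genes. The list median of that comparison was 0.32, against 0.05 over all tested genes. The isp-1;sod-5 count against wild type depends on replicate 3. The median deviations from the wild type mean were −0.19, −0.24 and 0.15 in the double mutant libraries and −0.39, −0.43 and −0.42 in isp-1, and without replicate 3 the list had 29 falls and a median of −0.22, against −0.16 to −0.01 with another library left out. No fall was called without any 1 wild type library or without double mutant replicate 1 or 2, and 2 were called without isp-1;sod-3 replicate 2. An example is rpl-2, with 1079.9, 1041 and 1421 CPM in the double mutant, 958, 911 and 916 CPM in isp-1 and 1488, 1404 and 1552 CPM in wild type; it was not called (log2 −0.34, adjusted p = 0.0612), but it was called lower under 8 other alternatives, among them edgeR (adjusted p = 0.0132) and the length trend removed (adjusted p = 0.0102), and without replicate 3 (adjusted p = 0.00308), with adjusted p between 0.00308 and 0.181 over all alternatives. In the endoplasmic reticulum 9 of 24 folding and stress genes fell (median −0.20), and 9 fell in isp-1. The protein disulphide isomerase gene pdi-6 was at 122, 139.7 and 125 CPM in the double mutant, 134, 135 and 128 CPM in isp-1 and 236, 207 and 225 CPM in wild type, with both mutants below wild type (log2 −0.79 in isp-1;sod-5, adjusted p = 0.000200), and the chaperone gene hsp-3 fell by 0.60.

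Families of substrate adaptors and receptors had more genes called higher than lower. Of 167 F-box and SKP1-related genes, 31 rose and 8 fell (median 0.30, or 0.19 without double mutant replicate 3, with 19 without wild type replicate 2 higher), of 62 MATH and BTB domain genes 25 rose and 2 fell (median 0.40), and of 168 nuclear hormone receptor genes 40 rose and 3 fell (median 0.30, with 24 without wild type replicate 2 and 26 without wild type replicate 3 higher). The shares called higher were 18.6% of F-box, 40.3% of MATH and BTB and 23.8% of receptor genes, against 14.1% of all tested genes. The F-box share was thus near that of all genes. In isp-1, 32 F-box, 19 MATH and BTB and 30 receptor genes rose, and 8, 1 and 2 fell. Of all tested genes, 9.60% rose and 10.4% fell in isp-1. The F-box gene fbxa-192 was at 24.3, 30.9 and 31.1 CPM in the double mutant, 18.4, 16.2 and 17.3 CPM in isp-1 and 4.63, 5.34 and 5.23 CPM in wild type, 3 separate groups (log2 2.39, adjusted p = 1.38e-07). The MATH-domain gene bath-13, among the largest rises, was at 16.6, 15.1 and 16.0 CPM in the double mutant, 10.2, 9.06 and 11.3 CPM in isp-1 and 0.466, 0.588 and 0.573 CPM in wild type. Receptor gene nhr-61 rose by 1.72 (adjusted p = 7.94e-06). Both F-box and MATH families hold many recent copies, so single values may share reads.

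**Figure D3:**
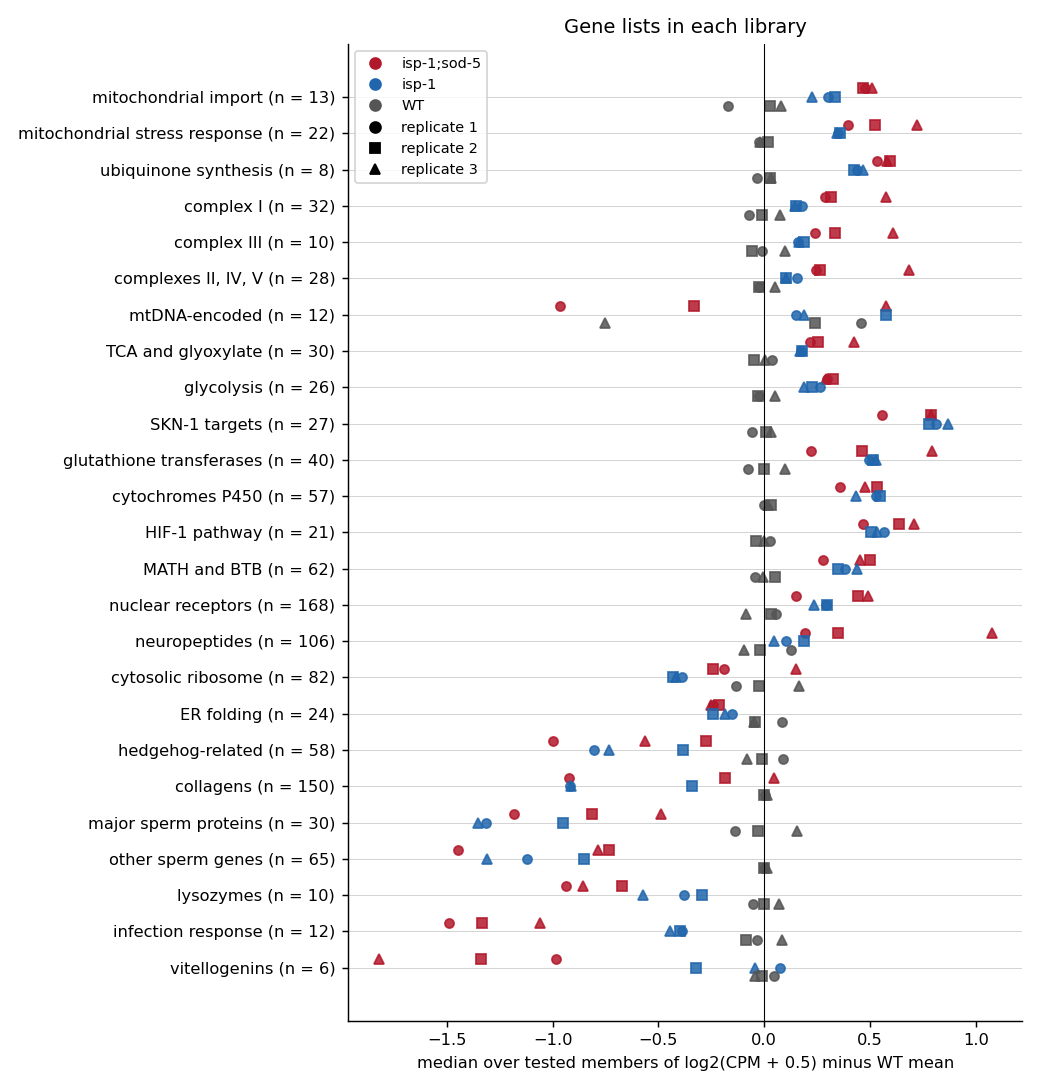
Median of log2(CPM + 0.5) minus the wild type mean over the tested genes of 25 lists, with 1 point per library of isp-1;sod-5, isp-1 and wild type. Lists of mitochondrial import, stress response, ubiquinone and nuclear respiratory subunits, and of SKN-1 targets, glutathione transferases and cytochromes P450, sit above 0 in the double mutant libraries, while the mtDNA-encoded list lies on both sides of 0. The yolk, infection response and lysozyme lists sit below 0 and below isp-1. In the neuropeptide and cytosolic ribosome lists the isp-1;sod-5 replicate 3 point lies above those of replicates 1 and 2.

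Sperm genes had low medians in both mutants. Of 65 sperm genes outside the major sperm proteins 28 fell and 1 rose in the double mutant (median −1.01), against 34 and 0 in isp-1 (median −1.09). The count moved with single libraries, being 9 without double mutant replicate 1, 10 without wild type replicate 2, 11 without wild type replicate 1, 12 without wild type replicate 3, 44 without isp-1;sod-3 replicate 3 and 48 without isp-1;sod-3 replicate 2, while the median stayed between −1.12 and −0.82. The sperm membrane fusion gene fer-1 was at 2.54, 6.80 and 2.85 CPM in the double mutant, 4.37, 6.97 and 3.33 CPM in isp-1 and 14.03, 13.996 and 15.4 CPM in wild type. Mutant libraries varied but lay below wild type (log2 −1.83 in isp-1;sod-5, adjusted p = 0.00544), as did those of spe-49 (log2 −1.85, adjusted p = 0.00156). Major sperm protein genes, which are near-identical copies, had 5 of 30 lower (median −0.81), against 22 in isp-1. That count was 0 without double mutant replicate 1 or 2 or wild type replicate 1 or 2 or 3, 2 without isp-1 replicate 1 or 2 or 3 or isp-1;sod-3 replicate 1, 18 without isp-1;sod-3 replicate 3 and 24 without isp-1;sod-3 replicate 2. The sperm Argonaute genes alg-3 and alg-4 were at log2 −1.49 and −1.55, and alg-3 was not called without replicate 1 or 3 of the double mutant, nor alg-4 without those or any wild type library. Oocyte and eggshell genes had 2 of 41 higher, and genes of germline mitosis and meiosis 5 of 53 higher and 1 lower. With a wild type library left out the germline list had 2 higher, and its summed level with all libraries was 10168, 9433 and 8991 CPM in the double mutant and 9572, 9635 and 9681 CPM in wild type. The part of fewer sperm or a later stage in these values was not tested.

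Cuticle and hedgehog-related genes were also lower in median and uneven among libraries. Collagen genes had 12 of 150 higher and 6 lower (median −0.28), against 21 and 26 in isp-1 (median −0.72). The isp-1;sod-5 shares, 8% higher and 4% lower, were below the 14.1% and 10.2% of all tested genes. Their isp-1;sod-5 median was −0.48 without replicate 3 and −0.06 without replicate 1. The lower count changed most: 2 without double mutant replicate 1 or wild type replicate 1 or 3, 3 without isp-1 replicate 3 or wild type replicate 2 or isp-1;sod-3 replicate 1, 15 without isp-1;sod-3 replicate 2 and 28 without isp-1;sod-3 replicate 3, and 43 with edgeR. The collagen gene dpy-17 rose to 22.1, 12.9 and 11.6 CPM in the double mutant, with 47.3, 28.8 and 34.5 CPM in isp-1 and 1.99, 3.15 and 3.41 CPM in wild type (log2 2.23, adjusted p = 0.000893), and col-135 fell to 15.0, 12.9 and 14.1 CPM in the double mutant, against 44.7, 29.0 and 33.9 CPM in isp-1 and 41.1, 45.0 and 32.1 CPM in wild type. Among isp-1;sod-5, isp-1 and wild type, only isp-1;sod-5 stood apart for col-135 (log2 −1.45 against wild type and −1.31 against isp-1, adjusted p = 4.55e-05 and 0.000698). The gene was not called between isp-1;sod-5 and isp-1;sod-3. Of 58 hedgehog-related and patched-related genes, 13 fell and 1 rose (median −0.60, or −0.39 without double mutant replicate 1), against 13 and 2 in isp-1. The lower count was 7 without double mutant replicate 1 or wild type replicate 1, 8 without wild type replicate 3, 20 without double mutant replicate 2, 21 without isp-1;sod-3 replicate 2 and 23 without isp-1;sod-3 replicate 3. Transthyretin-related genes rose in 14 of 49 cases and fell in 3 (median 0.31). These are short genes, with median deviations from the wild type mean of −0.03, 0.22 and 0.60 in the double mutant libraries. Without replicate 3, the highest of these, 10 rose and 5 fell and the median was 0.10. The rises were 7 without wild type replicate 1 and 9 without wild type replicate 2.

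Few markers of other tissues were called. Muscle genes had 3 of 41 lower and 0 higher (median −0.21, or −0.11 without wild type replicate 1 and −0.09 without double mutant replicate 1), with the pharyngeal myosin gene myo-2 at 157, 195 and 119.6 CPM in the double mutant, 148, 182 and 166 CPM in isp-1 and 298, 253 and 290.4 CPM in wild type (log2 −0.86, adjusted p = 0.00809). That count ran from 1 without wild type replicate 1 or 3 to 10 without isp-1;sod-3 replicate 2, with 7 without double mutant replicate 2 and 5 without isp-1;sod-3 replicate 3. Hypodermis markers had 2 of 19 higher, and synaptic and transmitter genes 2 of 40. Whether a shift in tissue or stage accounts for any list was not tested.

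The neuropeptide count moved without replicate 3 and also without single wild type libraries. With all libraries 33 of 106 were higher and 1 lower than in wild type (median 0.53), against 3 and 5 in isp-1 (median 0.14). Between isp-1;sod-5 and isp-1 directly, 2 were called higher and 0 lower, against 0.642% and 0.564% of all tested genes. The list median of that comparison was 0.40, against 0.05 over all tested genes. The median deviations from the wild type mean were 0.19, 0.35 and 1.08 in the double mutant libraries, highest in replicate 3, and 0.11, 0.19 and 0.05 in isp-1. The median exon length of the list is 591.5 bases. Without replicate 3 there were 17 higher and 5 lower with a median of 0.30, while 16 were higher without wild type replicate 2 and 19 without wild type replicate 3. With the length trend removed 43 were higher and the median was 0.45. Among them flp-18, an FMRFamide-like peptide gene, was above wild type in all replicates, with 15.5, 18.9 and 20.7 CPM in the double mutant, 10.8, 12.4 and 14.01 CPM in isp-1 and 8.54, 7.85 and 8.52 CPM in wild type (log2 1.09, adjusted p = 0.000218). The peptide processing gene egl-21 and the dense core vesicle gene ida-1 rose by 0.45 and 0.63. The synaptic list moved little, and the summed level of the synaptic list was 1322, 1397 and 1335 CPM in the double mutant and 1344, 1286 and 1235 CPM in wild type.

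Calls that depended on length were also looked for gene by gene. The 4 called genes with the smallest adjusted p that were no longer called once each library's length trend was removed were iffb-1, mrpl-50, lmtr-2 and wars-1, in the order of that p. The translation initiation factor gene iffb-1, with 3655 exon bases, was at 243, 249 and 237 CPM in the double mutant and 319, 316 and 313 CPM in wild type (log2 −0.38, adjusted p = 0.00386). The short gene lmtr-2, with 508 bases, was at 44.3, 37.1 and 47.1 CPM in the double mutant and 28.6, 30.1 and 32.1 CPM in wild type (log2 0.49, adjusted p = 0.00782). In both the 3 isp-1;sod-5 libraries lay together on 1 side of wild type, replicate 3 included. By chromosome, 17.0% of tested genes on V and 10.3% on X were called higher, and 12.8% on IV and 8.24% on X were called lower, the extremes of the 6 chromosomes.

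Set directly against isp-1, few genes were called in the double mutant: 90 higher (0.642%) and 79 lower (0.564%), 1.21% of those tested. Of the 14013 tested genes, 1659 were at an unadjusted p below 0.05 in limma. That level is also reached by some genes without any difference, and calls miss some that differ. Neither figure is thus a count of differing genes. The higher count was 53 to 56 without any 1 isp-1 library, and the lower count was 33 to 37 without any 1 isp-1 library, 49 without wild type replicate 2 and 133 without isp-1;sod-3 replicate 2. The 4 named rises, chosen by the smallest adjusted p among genes also called against wild type, were timm-17B.2 (log2 3.27, adjusted p = 9.47e-08), clec-43 (2.55), hphd-1 (0.96) and rnh-1.3 (1.69), and the 4 falls were vit-3 (−2.30), vit-4 (−1.81), dod-24 (−2.85) and ztf-25 (−1.62). The zinc finger gene ztf-25 was at 4.23, 4.23 and 4.40 CPM in the double mutant, 16.4, 13.3 and 13.2 CPM in isp-1 and 8.72, 9.08 and 8.90 CPM in wild type. Its replicates were even, with wild type between the mutants (log2 −0.97 in isp-1;sod-5 and 0.65 in isp-1 against wild type, adjusted p = 0.000893 and 0.0139).

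The isp-1;sod-3 libraries show which of these values are shared by the other double mutant. A comparison of the 2 double mutants was added after the data were seen, and it called 11 genes higher (0.0785%) and 4 lower (0.0285%) in isp-1;sod-5, with 7 called higher without isp-1;sod-3 replicate 1. Of the 14013 tested genes, 528 were at an unadjusted p below 0.05 in limma (425 to 1395 when 1 library was left out). Some genes reach that level without any difference, so this is no count of differing genes. In isp-1;sod-3, vit-3 was at 306, 318 and 252 CPM and vit-4 at 595, 587 and 518 CPM, close to isp-1;sod-5 and below isp-1 (isp-1;sod-5 minus isp-1;sod-3 −0.51 and −0.29, adjusted p = 0.920 and 0.920). Both genotypes also lay below isp-1 for dod-24 (3.04, 6.03 and 5.49 CPM in isp-1;sod-3) and irg-8 (50.1, 36.4 and 55.4 CPM), and above it for clec-43 (9.92, 7.50 and 10.3 CPM), hphd-1 (731, 678 and 760.4 CPM) and hrg-1 (82.0, 103 and 98.9 CPM). For fmo-2, isp-1;sod-3 was at 2.46, 2.54 and 3.03 CPM, below isp-1 and above every isp-1;sod-5 library, and its clec-43 libraries all lay below those of isp-1;sod-5, but neither difference was called (log2 −0.72 and 0.32, adjusted p = 0.914 and 0.920), nor were those of the other genes just named. A missed threshold does not show that they are equal.

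Other genes differed between the double mutants in this test. The import gene timm-17B.2 was at 16.1, 18.7 and 15.5 CPM in isp-1;sod-3, above isp-1 but far below isp-1;sod-5 (log2 2.60, SE 0.15, adjusted p = 2.90e-06). The level of ztf-25 in isp-1;sod-3 was 14.3, 14.7 and 10.8 CPM, overlapping isp-1, with 1 library below it, and above isp-1;sod-5 (log2 −1.51, adjusted p = 0.000630). For gpx-8 it was 2.07, 2.28 and 0.774 CPM, and the difference of 1.78 (adjusted p = 0.0248) was not called when any of 4 single libraries was left out. The level of rnh-1.3 was 41.9, 55.1 and 31.9 CPM in isp-1;sod-3, between isp-1 and isp-1;sod-5 (log2 0.88, adjusted p = 0.214).

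**Figure D4:**
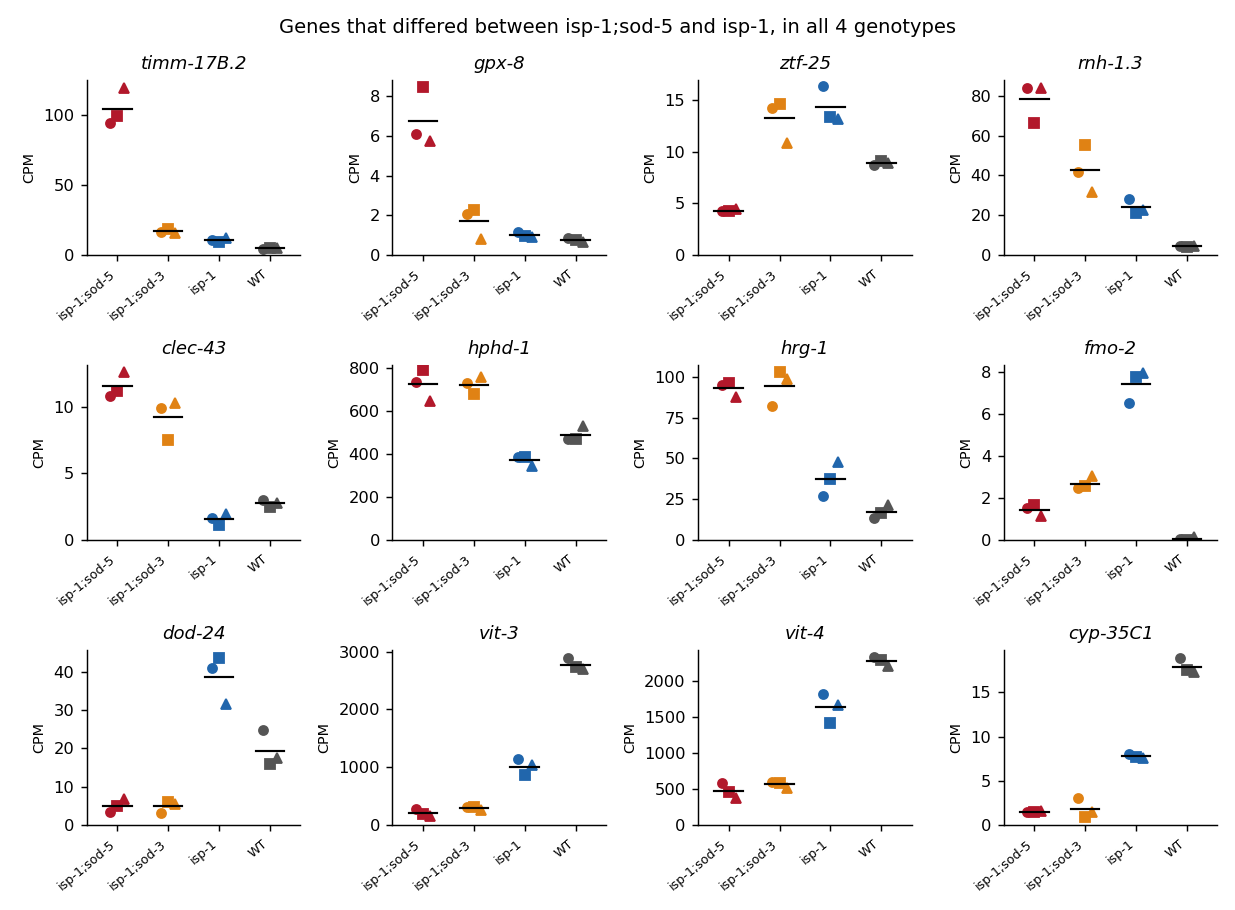
Level in CPM (linear axis from 0) of 12 genes in the libraries of isp-1;sod-5, isp-1;sod-3, isp-1 and wild type, with 1 point per library and a line at the mean. For timm-17B.2, gpx-8 and ztf-25 isp-1;sod-5 stands apart from isp-1;sod-3, whereas for vit-3, vit-4, dod-24, hphd-1 and hrg-1 the double mutants overlap and lie away from isp-1. For clec-43 and fmo-2 both lie away from isp-1 without overlapping each other.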

How the data were processed

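RNA was extracted from whole prefertile young adult worms and sequenced as stranded mRNA libraries (Kapa kit), per the labels' protocols. Per the submitters' processing notes, the tools included featureCounts 1.4.6 from Subread 1.5.0 and, in R 3.3.0, edgeR 3.14.0, after bcl2fastq 2.17.1.14 and FastQC 0.11.3, with genome build WBcel235; settings, strand use and annotation are not given in the sources used here. The authors deposited one matrix of CPM, counts per 1000000 reads in genes, for 14326 genes, all of which exceed 1 CPM in at least 2 libraries. Each column sums to 1000000, and its values are multiples of a smallest step within 0.001, which gave back reads and depth. Depth ran from 5438798 to 155071752 reads, a ratio of 28.5, so precision differs among libraries.

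Genes above 1 CPM in at least 3 of 12 libraries were fitted on log2(CPM + 0.5) with limma 3.58.1 in R 4.3.3 (all 12 libraries, trended robust variance, Benjamini-Hochberg adjusted p below 0.05), and the code was tested on simulated data. Alternatives were edgeR 4.0.16 and DESeq2 1.42.0 on recovered reads of 9 libraries (isp-1;sod-5, isp-1 and wild type), TMM factors, median centring, quantile normalization, a loess length correction (span 0.5), other pseudocounts and filters, library weights, a replicate block, the 6 libraries compared, and leaving out each library. Replicate numbers of the same value did not deviate together between isp-1;sod-5 and wild type, so they were not used as pairs. Coordinates and exon lengths are from the Ensembl annotation of WBcel235, in which 14250 of the IDs were found. The comparison, its members and the 67 gene lists were chosen with earlier results of these data known. The genes named are sod-1 to sod-5 with isp-1, then the rises and falls of greatest size, 12 each (locus name, mean of at least 5 CPM, no overlap), up to 4 members of each list by smallest adjusted p, 4 genes in each direction that also differed from isp-1, and 4 whose call depended on length; other genes were named after their values were seen.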

Additional observations from a re-analysis of the deposited data

Results flagged for a closer look

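In all, 5 genes were called in opposite directions against wild type in isp-1;sod-5 and in isp-1, with the difference between the mutants itself past the adjusted threshold in limma. The lectin gene clec-43 differed by 2.55 between isp-1;sod-5 and isp-1 (adjusted p = 1.16e-05), being 1.89 from wild type in isp-1;sod-5 and −0.66 in isp-1. The infection response gene dod-24 differed by −2.85 (adjusted p = 7.82e-05) and the zinc finger gene ztf-25 by −1.62 (adjusted p = 9.05e-05). The propionate shunt gene hphd-1 differed by 0.96 (adjusted p = 0.000274). Of the 5 genes, ztf-25 was also called between isp-1;sod-5 and isp-1;sod-3, while clec-43, dod-24, hphd-1 and folt-2 were not.

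The folate transporter gene folt-2 was at 487, 573 and 648 CPM in isp-1;sod-5, 264, 289 and 247 CPM in isp-1 and 448, 459.9 and 416 CPM in wild type. It differed by 1.09 between the mutants (adjusted p = 0.000292), while its call against wild type in isp-1;sod-5 (log2 0.36, adjusted p = 0.0455) was close to the threshold and was lost under 14 of the alternatives. Groups of 3 libraries are too small for a test of single outlying samples.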

How the results depend on the processing

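For single genes of isp-1;sod-5 against wild type, 8025 values under the alternatives stayed on their side of the threshold, 463 lost the call and 123 gained it. Of the 8025, 68 values from 22 genes had the other sign without a call in either fit. A further value, that of rrn-3.1, had the other sign with a call, between −1.02 and 1.10 with 1 library left out, positive without replicate 3 of the double mutant. Of list medians, 1510 stayed within the spread between replicates, 42 of them with the other sign, and 98 moved beyond it, 13 with the other sign. Against wild type, isp-1;sod-5 had 520 genes higher and 927 lower at 2-fold or more, and 2359 lower with DESeq2, 2560 with edgeR and 783 with the 5 CPM filter. Leaving out 1 library gave 1213 to 2214 higher and 649 to 1948 lower. For isp-1 against wild type the higher count was 3163 with library weights, 2700 with only the 6 libraries compared and 430 at 2-fold or more. Its lower count was 2295 with DESeq2, 2333 with edgeR, 798 with the 5 CPM filter, 3362 with weights and 3002 with 6 libraries. With 1 library left out these counts ran from 647 to 1663 and from 386 to 2033. For isp-1;sod-5 against isp-1 the higher count was 192 with DESeq2 and 49 at 2-fold or more, and the lower count was 259 with DESeq2, 200 with edgeR, 140 with TMM, 158 with the length trend removed, 123 with weights, 131 with median centring, 134 with quantile normalization and 51 with 6 libraries. With 1 library left out they ran from 53 to 130 and from 33 to 133. The comparison of the double mutants ran from 7 to 13 higher and from 3 to 5 lower. The length slope of isp-1;sod-5 replicate 3 was −0.269 with the 5 CPM filter. The cause of these shifts was not tested. With the replicate block, isp-1;sod-5 had 1620 genes higher and 1131 lower than wild type, isp-1 had 1075 and 1107, and isp-1;sod-5 had 71 higher and 52 lower than isp-1; same-numbered libraries correlated between −0.545 and 0.329 in their deviations, so the numbers pair nothing. Among lists described, the sign of the median depended on the scaling for cytosolic heat shock genes and synaptic genes, at −0.06 with TMM for both, for oocyte genes, at −0.03 with TMM, and for fat synthesis and germline genes, at 0.00 and 0.06 with the length trend removed. Depth limits sod-5 and other genes near 0.5 CPM, where fold changes also depend on the pseudocount.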

Other observations

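Some gene groups outside the accounts above also differed between isp-1;sod-5 and wild type. Of 21 gut protease genes 5 rose and 8 fell (median −0.25), with 5 without wild type replicate 2 or 3 lower, and the largest of the falls were the aspartyl protease genes asp-12, at 2.26, 1.65 and 1.90 CPM in isp-1;sod-5, 2.46, 3.40 and 2.64 CPM in isp-1 and 39.4, 23.3 and 18.6 CPM in wild type, and asp-17, at 1.13, 1.65 and 0.849 CPM in isp-1;sod-5, 1.91, 1.31 and 1.84 CPM in isp-1 and 13.6, 16.3 and 21.4 CPM in wild type. Both genes were lower in isp-1;sod-5 than in wild type without overlap. Of 18 genes of mitochondrial fission, fusion and mitophagy 6 rose and 1 fell (median 0.24), with 3 without wild type replicate 2 higher. The fission factor gene mff-2 was at 41.8, 39.5 and 42.7 CPM in isp-1;sod-5 and 21.8, 24.1 and 28.3 CPM in wild type (log2 0.74, adjusted p = 0.00230). Cytosolic heat shock genes gave 3 of 17 higher, among them hsp-43 at 79.7, 76.9 and 99.7 CPM in isp-1;sod-5 and 60.3, 62.0 and 62.6 CPM in wild type (log2 0.46, adjusted p = 0.00644). The endogenous-gene Argonaute csr-1 was at 403, 435 and 378 CPM in isp-1;sod-5, 399.9, 397 and 399.9 CPM in isp-1 and 558, 600.2 and 554 CPM in wild type (log2 −0.49, adjusted p = 0.00163).

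The genes that differed between isp-1;sod-5 and isp-1;sod-3 were chosen after their values were seen. Besides timm-17B.2, ztf-25 and gpx-8, they include sod-3, which is mutated in isp-1;sod-3, at 15.1, 16.9 and 26.1 CPM in isp-1;sod-5, with 0.148, 1.47 and 1.74 CPM in isp-1;sod-3 (log2 3.77, adjusted p = 0.000630). The sensor gene ire-1 of the endoplasmic reticulum was at 136, 153 and 113 CPM in isp-1;sod-5, 63.0, 62.4 and 53.4 CPM in isp-1;sod-3, and 139.6, 141 and 130.2 CPM in wild type (log2 1.15 for isp-1;sod-5 against isp-1;sod-3, adjusted p = 0.000630). The cullin gene cul-5 was at 65.9, 78.7 and 60.7 CPM in isp-1;sod-5, 35.6, 35.5 and 29.9 CPM in isp-1;sod-3, and 80.5, 85.2 and 82.5 CPM in wild type (log2 1.01, adjusted p = 0.000677), and the dynamin gene dyn-1 at 83.3, 82.9 and 79.2 CPM in isp-1;sod-5, 135, 133 and 144 CPM in isp-1;sod-3, and 104, 88.0 and 87.9 CPM in wild type (log2 −0.74, adjusted p = 0.00199). F40D4.13 was at 80.9, 75.4 and 77.2 CPM in isp-1;sod-5, 40.6, 43.1 and 36.7 CPM in isp-1;sod-3, with 24.3, 21.3 and 23.4 CPM for isp-1 and 0.435, 0.534 and 0.334 CPM in wild type (log2 0.95 for isp-1;sod-5 against isp-1;sod-3, adjusted p = 0.00675). No groups overlapped, but this call was lost without isp-1;sod-3 replicate 1 (adjusted p = 0.0502).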
